A study of Mus musculus with 6 samples.

Results

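The genes described here mark lipid-associated macrophages, and comprise the 10 genes Trem2, Tyrobp, Gpnmb, Lgals3, Cd9, Spp1, Cd44, Msr1, Clec7a and Apoe. All 10 were found by symbol among the 23282 rows of the deposited counts, each on 1 row, and all 10 were among the 12995 genes that passed the filter on low counts. They were selected on earlier results of the same contrast of wild-type and Letmd1 KO mice, so their differences between the genotypes are given as a description, with no p-value, and calls among them are only counted. RNA came from the whole interscapular brown adipose tissue (BAT) depot of male C57BL/6N mice at 5 weeks of age, 3 wild-type and 3 Letmd1 KO, without any other treatment named in the labels. The KO mice are homozygous throughout the body for a knockout-first allele derived from 1 ES cell clone, in which an intronic cassette with lacZ and a neomycin resistance gene disrupts Letmd1, a gene for a mitochondrial protein. QuantSeq libraries sample transcripts near their 3′ ends, and counts therefore do not grow with gene length.

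Lipid-associated macrophages are tissue macrophages that take up and break down lipid, and are known from obese adipose tissue, where they gather around stressed or dying adipocytes. Their program depends on TREM2, a surface receptor that binds lipids and lipoproteins and signals through the adaptor TYROBP. Downstream of this pair, such cells express lysosomal, lipid-handling and matrix genes, among them Gpnmb, Lgals3, Cd9 and Spp1.

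Total counts were between 6669577 and 14574273 per mouse. Levels are given as CPM, counts relative to a TMM-scaled library size, from a method that corrects library sizes for differences in composition. The floor used here, 3 counts in a library, lay between 0.176 and 0.397 CPM, and covers counting error alone. The targeted gene matched the labels, since wild-type libraries held 5658, 6490 and 5266 Letmd1 counts and KO libraries 0, 0 and 1. Ucp1, the uncoupling protein that defines brown adipocytes, averaged 6328 ± 519 CPM in the wild-type group and 382 ± 114 CPM in the KO group (SD, n = 3 each). Skeletal muscle markers varied between mice, with summed levels of 85.5 to 519 CPM in wild-type and 369 to 1347 CPM in KO BAT. A muscle score, the mean log2 CPM of these markers, was -0.36 in wild-type replicates 1 and 3 and 4.88 in wild-type replicate 2. It was 4.51 to 6.42 in the KO mice, so it partly follows genotype. With this score as a covariate 9 members were called, while some of the other lists given below held fewer calls. In that fit the log2 fold changes were 23.7 for Spp1 and 14.8 for Trem2, against 8.06 and 8.82 without the covariate. Both genes were at or under the floor in wild-type BAT, so their sizes are given below as lower bounds. The part of muscle in the results below was not tested.

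Of the 10 members, 9 passed an adjusted p of 0.05 as higher in KO BAT (edgeR's quasi-likelihood test, Benjamini-Hochberg adjustment), where 23.7% of all tested genes were called higher and 22.3% lower. For the same 9, every KO mouse was above every wild-type mouse, a pattern found in 30.1% of all tested genes. Because these genes were selected on this contrast, nothing is read from either count. The median log2 fold change of the 10 was 4.29, beside 0.03 over all tested genes. Apoe was the exception. Since the tissue was sequenced in bulk, more macrophages, more RNA per macrophage and RNA from other cell types cannot be told apart.

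**Figure D1:**
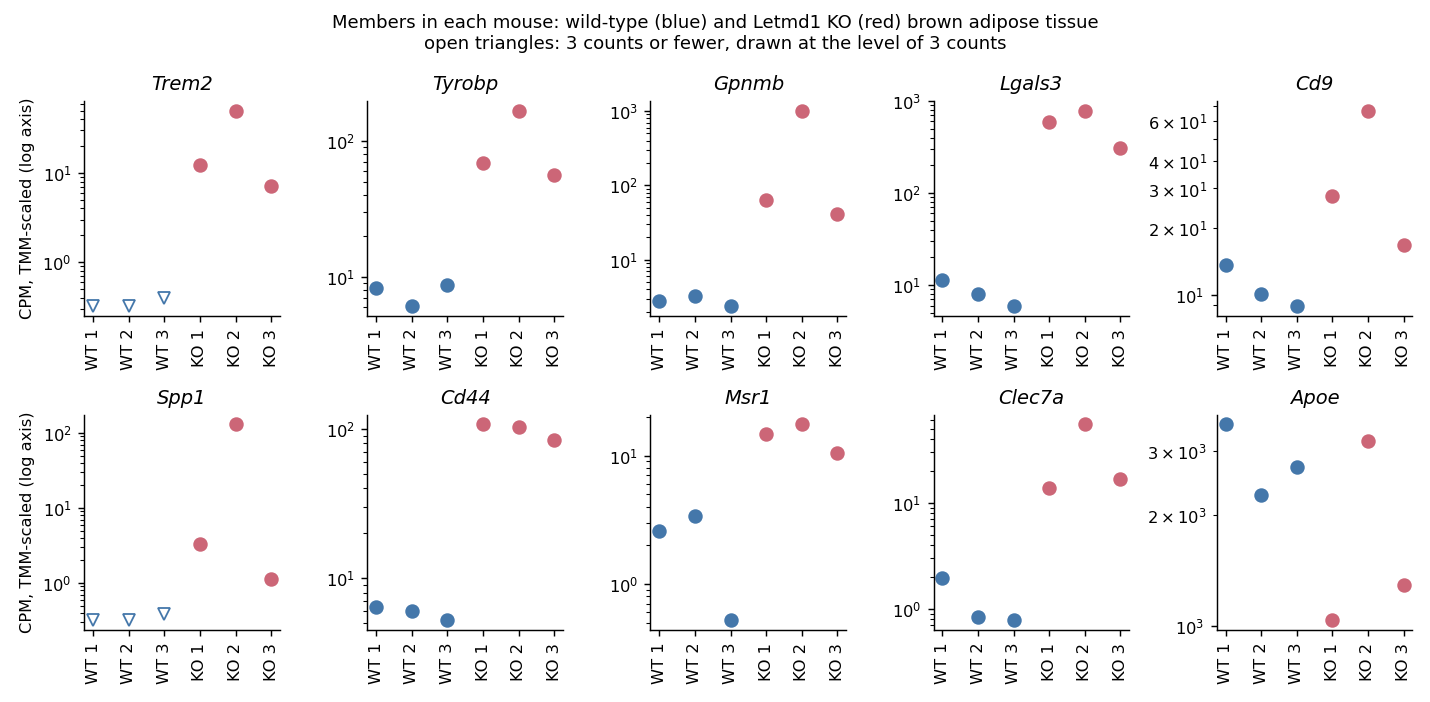
Level of each member in CPM on a log axis (each panel has its own range) for every mouse, wild type in blue and Letmd1 KO in red, with open triangles at the level of 3 counts for mice at 3 counts or fewer. Letmd1 KO replicate 2 is the highest of all 6 mice in 8 of the 10 panels, and the genotypes overlap only for Apoe.

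Trem2, the lipid-sensing receptor, lies on the plus strand of chromosome 17 (48346401 to 48354147, GRCm38, GENCODE vM21). It had 1, 0 and 0 counts in wild-type BAT. In KO BAT it had 111, 378 and 120 counts, or 12.2, 50.02 and 7.06 CPM. All wild-type mice were at or under the floor, and Trem2 was at least 67.1-fold higher in KO BAT against the mean wild-type floor of 0.344 CPM. Without KO replicate 2 the bound was at least 28.0-fold. Tyrobp, which encodes the ITAM adaptor that carries the TREM2 signal (chromosome 7, 30413760 to 30417585, plus strand), was already detected in wild-type BAT, at 8.19, 6.04 and 8.74 CPM. It stood at 69.1, 168 and 56.0 CPM in the KO mice. The means were 7.66 ± 1.42 CPM and 97.6 ± 61.0 CPM (SD, n = 3 each), a log2 fold change of 3.67 (SE 0.42) that was 3.03 without KO replicate 2. Thus the adaptor was measurable in every mouse, whereas the receptor was detected above the floor in KO mice alone.

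Promoters of the receptor gene and of both members that KO replicate 2 dominated are shown. Trem2 is the receptor of the program, and Gpnmb and Spp1 are the members whose levels rest most on 1 mouse. Each run covers 150 bases before to 30 bases from the RefSeq start site on the plus strand of GRCm38.p6, 5′ to 3′, at chr17:48346251-48346430 for Trem2, chr6:49036368-49036547 for Gpnmb and chr5:104434961-104435140 for Spp1. Capitals mark an AP-1 motif (TGANTCA) or a PU.1 core (GAGGAA) on either strand, PU.1 being the lineage factor of macrophages.
Trem2: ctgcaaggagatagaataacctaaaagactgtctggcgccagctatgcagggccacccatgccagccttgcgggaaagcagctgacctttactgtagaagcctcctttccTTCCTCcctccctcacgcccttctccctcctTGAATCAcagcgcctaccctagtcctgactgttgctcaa
Gpnmb: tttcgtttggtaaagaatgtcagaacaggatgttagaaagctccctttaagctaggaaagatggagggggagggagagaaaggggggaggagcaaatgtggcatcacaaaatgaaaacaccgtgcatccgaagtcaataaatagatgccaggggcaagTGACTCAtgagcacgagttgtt
Spp1: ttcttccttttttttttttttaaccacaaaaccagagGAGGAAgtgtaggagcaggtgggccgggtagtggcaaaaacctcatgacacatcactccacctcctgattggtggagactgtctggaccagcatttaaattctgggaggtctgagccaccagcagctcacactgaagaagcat
Of the 10 members, 8 had a RefSeq promoter window of 250 bases before to 50 bases after the start. Read on both strands, AP-1 was in 2 of the 8 (Trem2 and Gpnmb) and in 7.81% of 32851 windows of all genes, and the PU.1 core was in 5 of the 8 (Trem2, Spp1, Cd44, Clec7a and Apoe) and in 28.3% of all windows. The E-box CACGTG was in 0 of the 8 and 7.15% of all windows, and the M-box CATGTG in 1 of the 8 (Cd9) and 14.2% of all windows. None of these motifs overlapped another in the runs shown. A match describes letters in a window, not a bound site.

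Msr1 encodes scavenger receptor A, which takes up modified lipoproteins (chromosome 8, 39581685 to 39642673, minus strand). It was at 2.59, 3.39 and 0.522 CPM in wild-type BAT and at 14.8, 17.5 and 10.5 CPM in KO BAT. The KO values were within 1.66-fold of each other, and the log2 fold change was 2.67 (SE 0.46). Clec7a encodes dectin-1, a receptor for fungal glucans (chromosome 6, 129461591 to 129472779, minus strand). It was at 1.94, 0.848 and 0.782 CPM in wild-type BAT and at 13.6, 54.7 and 16.8 CPM in KO BAT, a log2 fold change of 4.52 (SE 0.64) that was 3.65 without KO replicate 2. Here KO replicate 2 was 3.26-fold above the next KO mouse. Cd44 encodes a receptor for hyaluronan and osteopontin (chromosome 2, 102811141 to 102901665, minus strand). It was at 6.36, 6.04 and 5.22 CPM in wild-type BAT and at 107, 102 and 84.5 CPM in KO BAT. Means of 5.87 ± 0.59 and 97.9 ± 11.8 CPM (SD, n = 3 each) gave a log2 fold change of 4.05 (SE 0.16), the smallest standard error of the 10 members. Cd44 was also the 1 member in which KO replicate 2 was not the highest KO mouse.

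Lgals3 encodes galectin-3, a lectin of phagocytes that binds damaged lysosomes (chromosome 14, 47367751 to 47386160, plus strand). Its level was 11.3, 7.95 and 5.87 CPM in wild-type BAT and 591, 787 and 309 CPM in KO BAT. This 67.1-fold difference in means (8.38 ± 2.75 to 562 ± 240.2 CPM, SD, n = 3 each) was shared by all KO mice, since it was 53.7-fold without KO replicate 2. Cd9, a tetraspanin of the plasma membrane (chromosome 6, 125460266 to 125494791, minus strand), differed least among the 9 genes called higher. It was at 13.6, 10.1 and 8.87 CPM in wild-type BAT and at 27.8, 67.1 and 16.8 CPM in KO BAT. The ratio of means was 3.43, and 2.06 without KO replicate 2.

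Gpnmb and Spp1 were the members whose level rested most on a single mouse. Gpnmb encodes a transmembrane glycoprotein of lysosomes and the cell surface (chromosome 6, 49036546 to 49070929, plus strand). It had 26, 31 and 18 counts in wild-type BAT and 574, 7662 and 697 counts in KO BAT. In CPM these were 2.80, 3.29 and 2.35 against 63.1, 1014 and 41.0. KO replicate 2 was 16.1-fold above the next KO mouse and held 90.7% of the summed CPM of the KO mice. As a result the SD of 555 CPM exceeded the KO mean of 373 CPM (n = 3), and the 133-fold ratio of means fell to 18.5-fold without that mouse. The remaining KO mice still did not overlap the wild-type mice. The log2 fold change was 7.03 (SE 1.34) with all mice and 4.19 without KO replicate 2.

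Spp1 encodes osteopontin, a secreted matrix protein and ligand of integrins and CD44 (chromosome 5, 104435118 to 104441050, plus strand). It had 0, 1 and 3 counts in wild-type BAT and 30, 983 and 19 in KO BAT. KO replicate 2 was at 130.1 CPM, against 3.30 CPM and 1.12 CPM in KO replicates 1 and 3. That mouse held 96.7% of the summed KO level and was 39.5-fold above the next. Spp1 was at least 130.3-fold higher in KO BAT against the wild-type floor, and at least 6.41-fold higher without KO replicate 2. Among 11923 genes with a mean of at least 20 counts, the SD of log2 CPM over the KO mice ranked 1 for Spp1 and 4 for Gpnmb, and 6043 for Cd44.

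Apoe encodes apolipoprotein E, which carries lipid out of macrophages and is also made by many other cells (chromosome 7, 19696109 to 19699188, minus strand). It was the most abundant of the members, at 3537, 2268 and 2717 CPM in wild-type BAT. In KO BAT it was at 1037, 3193 and 1291 CPM. KO replicates 1 and 3 were below every wild-type mouse and KO replicate 2 was above 2 of them, so the genotypes overlapped. The means were 2841 ± 644 and 1841 ± 1178 CPM (SD, n = 3 each), a log2 fold change of -0.63 (SE 0.38). Without KO replicate 2 it was -1.29, with Apoe called lower, whereas under quantile normalization it was 0.01.

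KO replicate 2 was therefore compared with the other KO mice over the whole table. It was the highest KO mouse for 9 of 10 members, against 38.4% of the 11923 genes with a mean of at least 20 counts. It was more than 2-fold above both other KO mice for 7 members (Trem2, Tyrobp, Gpnmb, Cd9, Spp1, Clec7a and Apoe), against 2.04% of those genes. With attention to this mouse part of how the genes were chosen, these shares are a description. By the ratio of KO replicate 2 to the higher of the other KO mice (on log2 CPM), Spp1 ranked 1 at 5.22, and Gpnmb and Mamdc2 followed with nearly equal values. In CPM without a prior count, Mamdc2 was 18.4-fold and Gpnmb 16.1-fold above the next KO mouse. The next genes were Thbs4 (3.41), Hcar2 (3.22), B3galt2 (3.09), Mup13 (2.95), Mup15 (2.86), H2-M2 (2.75) and Slc2a5 (2.68). Thbs4 encodes a thrombospondin of the matrix, and Hcar2 a receptor for hydroxybutyrate and niacin. Mup13 and Mup15 are major urinary proteins of a near-identical gene family, whose reads may be shared between copies. Cd44, Msr1 and Lgals3 ranked 5529, 2043 and 1162 of the 11923 genes, the lowest places among the members. Members other than Gpnmb and Spp1 thus differed widely in how far this mouse stood apart.

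**Figure D2:**
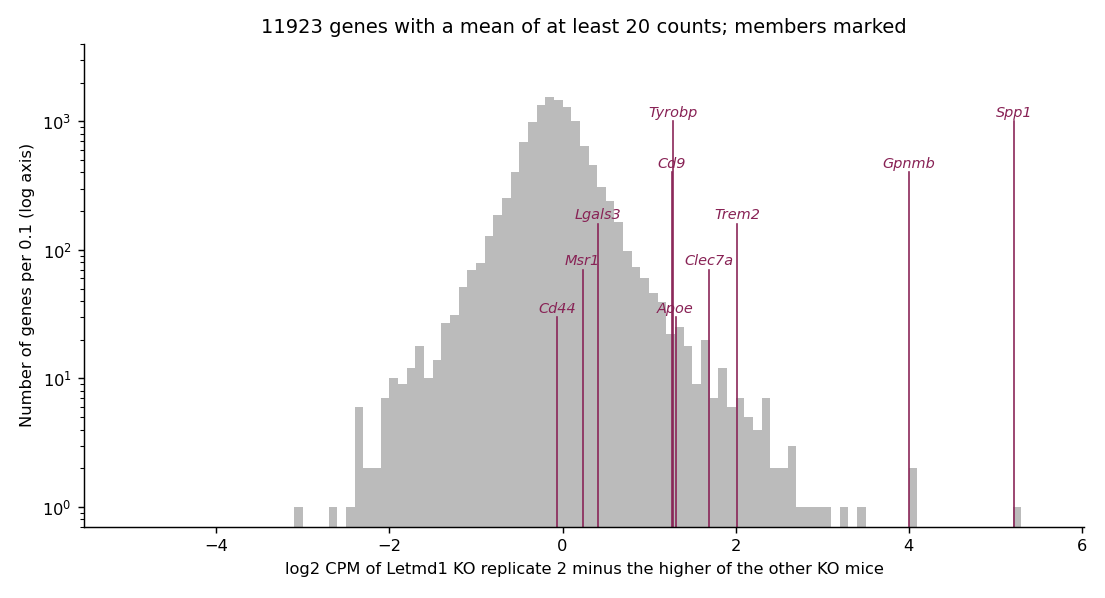
Histogram (log axis) of log2 CPM of Letmd1 KO replicate 2 minus that of the higher of the other KO mice, over 11923 genes with a mean of at least 20 counts, with vertical lines for the members (line heights carry no value). Spp1 at 5.22 and, next among the members, Gpnmb stand at the right edge. Cd44 at -0.07, Msr1 at 0.23 and Lgals3 at 0.41 lie furthest left of the members.

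Other macrophage genes were compared in the same mice. These lists too were chosen with earlier results of these data known. The p-values here and for the lists below are therefore a description, not independent support. All 12 tested pan-macrophage markers of a list of 13 were higher in KO BAT (edgeR, adjusted p under 0.05), beside 23.7% of all tested genes. The median log2 fold change of the 12 was 2.62, beside 0.03 over all tested genes. Their summed level was 176 to 255 CPM in wild-type and 1121 to 1907 CPM in KO BAT. Cd68, a lysosomal glycoprotein of macrophages, rose by a log2 fold change of 3.96 (adjusted p = 9.3e-05, edgeR). Lyz2, macrophage lysozyme, rose by 3.79 (adjusted p = 8.2e-05, edgeR), or by 3.17 without KO replicate 2, and Fcgr1, the high-affinity IgG receptor, by 3.30 (adjusted p = 9.1e-05, edgeR). Cd14, a co-receptor for lipopolysaccharide, had the lowest value, at 1.10 (adjusted p = 0.0129, edgeR). The untested marker was Mertk, a receptor for uptake of dying cells, with 12, 5 and 6 counts in wild-type and 2, 5 and 5 in KO BAT. KO replicate 2 was the highest KO mouse for all 12, beside 38.4% of the 11923 genes with a mean of at least 20 counts. It was over 2-fold above both others for 2 of the 12, beside 2.04% of those genes. Its mean log2 level of the 12 was 0.67 above the next KO mouse. All 8 tested markers of resident or perivascular macrophages were higher as well, with a median of 1.71, but 6 of 8 under quantile normalization, with the muscle covariate or without KO replicate 2. Vsig4, the untested one, had at most 6 counts in any mouse. In this list, KO replicate 2 was not over 2-fold above both others for any of the 7 with a mean of at least 20 counts.

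Member levels were then expressed relative to the 12 pan-macrophage markers of the same mouse, as log2 CPM minus the mean log2 CPM of the markers. On this scale 6 members were higher in every KO mouse than in every wild-type mouse, 2 were lower and 2 overlapped. The share of all tested genes on this scale was not computed, and the members were selected on this contrast. Nothing is therefore read from these counts. The markers themselves had log2 fold changes from 1.10 for Cd14 to 3.96 for Cd68, and Tyrobp, at 3.67, lay within that range. Lgals3 moved from a mean of -0.47 ± 0.57 to 2.84 ± 0.50 (SD, n = 3 each), Gpnmb from -1.95 ± 0.43 to 0.92 ± 2.12, and Cd44 from -0.93 ± 0.32 to 0.42 ± 0.39. Clec7a moved from -3.15 ± 0.65 to -1.64 ± 0.67 and Tyrobp from -0.57 ± 0.09 to 0.25 ± 0.46. Trem2 was the sixth. The wild-type values of Trem2 and Spp1 lie at the floor and depend on the prior count of 2 used for the log scale, so their place in these counts depends on it too. Cd9 and Apoe were lower relative to the markers, from -0.08 ± 0.40 to -1.21 ± 0.66 and from 7.92 ± 0.28 to 4.47 ± 0.47. Msr1 and Spp1 overlapped. For Spp1 the KO mice were at -4.13, 0.37 and -5.59, with KO replicate 2 far above the others.

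**Figure D3:**
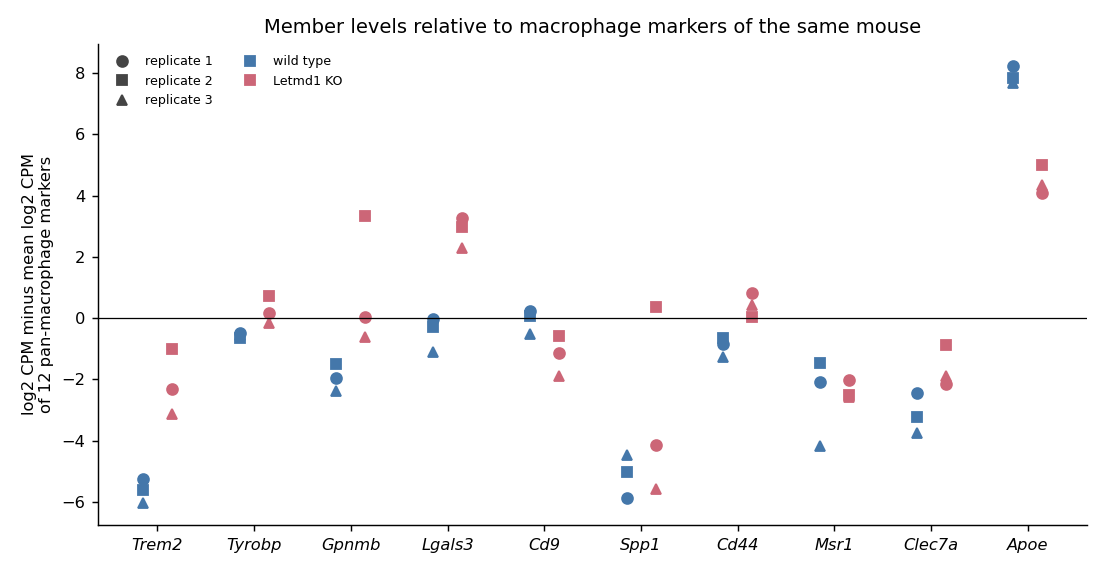
Log2 CPM of each member minus the mean log2 CPM of 12 pan-macrophage markers in the same mouse, wild type in blue and Letmd1 KO in red, with the symbol shape giving the replicate number. Of the 10, 6 lie higher in all KO mice, Cd9 and Apoe lie lower, and Msr1 and Spp1 overlap. The share of all genes on this scale was not computed.

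Beyond the members, a list of 26 other genes of the lipid-associated macrophage state held 23 tested genes. Of these, 15 were higher and 2 lower in KO BAT (edgeR), beside 23.7% and 22.3% of all tested genes. The median log2 fold change was 1.20, and with the muscle covariate 11 were higher and 0 lower. Mmp12, macrophage elastase, had 0, 1 and 0 counts in wild-type and 506, 1076 and 777 in KO BAT, and was at least 236-fold higher (at least 147-fold without KO replicate 2). Itgax, the integrin CD11c, was at 1.51, 0.318 and 1.43 CPM in wild-type and 11.8, 54.3 and 9.998 CPM in KO BAT, a log2 fold change of 4.53 (adjusted p = 0.0016, edgeR). Ctss, the lysosomal protease cathepsin S, rose by 4.03 (adjusted p = 0.00012, edgeR). Without KO replicate 2 these values were 3.33 for Itgax and 3.34 for Ctss. The other end of the list was Ctsz, cathepsin Z, which fell by 0.88 on the log2 scale (adjusted p = 0.0025, edgeR). KO replicate 2 was over 2-fold above both other KO mice for 8 of these 23 genes. The share of all genes with a mean of at least 20 counts was 2.04%. Without that mouse 15 were higher and 4 lower of 24 tested. Cst7, Olr1 and Ch25h were too low to test, with at most 17, 11 and 9 counts in any mouse.

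Of 13 tested signalling and shedding genes of TREM2 and TYROBP, 11 were higher and none lower, beside 23.7% and 22.3% of all tested genes. Their median log2 fold change was 2.04. The number higher was 8 under quantile normalization or with the muscle covariate, and 9 without KO replicate 2. Ptpn6, the phosphatase SHP-1, rose by 3.37 (adjusted p = 2.0e-05, edgeR). Syk, the kinase recruited by ITAM adaptors, rose by 3.24 (adjusted p = 0.00047, edgeR), and Sh3bp2, an adaptor of this pathway, by 3.20 (adjusted p = 7.5e-05, edgeR). Adam17, a sheddase that cleaves TREM2, was the lowest at -0.28 (adjusted p = 0.0825, edgeR) and its sign depended on the scaling, since library size alone gave 0.14. Of 5 other TREM family receptors only Treml1 could be tested, and it did not pass (log2 fold change 0.36, adjusted p = 0.683, edgeR). Trem1, Trem3, Treml2 and Treml4 had at most 2, 12, 9 and 8 counts in any mouse, and Card9, a signalling adaptor, at most 10.

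Partners of the secreted and adhesion members were mixed. Of 12 tested receptors and partners of SPP1, APOE, CD44, CD9 and galectin-3, 5 were higher and 2 lower, with a median of 0.40. Scaled by library size alone, 9 were higher and 2 lower. In the main fit 23.7% of all tested genes were called higher and 22.3% lower, so the share called lower is near that of all genes. Lgals3bp, a secreted ligand of galectin-3, rose by 1.20 (adjusted p = 0.0019, edgeR) and the integrin subunit gene Itgb5 by 1.19 (adjusted p = 7.9e-05, edgeR). Itgb3, another integrin subunit of osteopontin receptors, had a value of 1.11 that did not pass (adjusted p = 0.0719, edgeR), but passed by library size alone (1.52, adjusted p = 0.0161, edgeR) and without KO replicate 3 (1.44, adjusted p = 0.0254, edgeR). Vldlr, a receptor for apolipoprotein E, fell by 1.18 on the log2 scale (adjusted p = 0.00013, edgeR). Lrp8, Has1 and Has2 were too low to test, with at most 11, 9 and 11 counts in any mouse.

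Among 10 lipid export genes regulated by LXR, a sterol-sensing nuclear receptor, 3 were higher and 5 lower, with a median of -0.42, beside 23.7% and 22.3% of all tested genes, so the share called higher is near that of all genes. Scaled by library size alone, 3 were higher and 2 lower. Soat1, which esterifies cholesterol, was at 1.40, 1.80 and 1.83 CPM in wild-type and 17.5, 42.7 and 10.4 CPM in KO BAT. It rose by 3.79 (adjusted p = 0.00047, edgeR), or by 3.04 without KO replicate 2. The cholesterol transporter Abcg1 rose by 1.90 (adjusted p = 0.0013, edgeR) and the phospholipid transfer protein Pltp by 1.74 (adjusted p = 1.9e-05, edgeR). Apoc1, an apolipoprotein gene of the same cluster as Apoe, was at 568, 533 and 616 CPM in wild-type and 27.1, 76.1 and 29.8 CPM in KO BAT. It fell by 3.70 on the log2 scale (adjusted p = 5.7e-05, edgeR), with no overlap, and by 4.33 without KO replicate 2. Of the MIT/TFE factors, which control lysosomal genes, Mitf rose by 0.81 (adjusted p = 0.0077, edgeR). Tfec was called higher as well, from 1, 1 and 3 counts to 26, 15 and 32. All its wild-type values were at or under the floor, so only a bound is given, at least 6.51-fold higher. Tfe3 and Tfeb did not pass (0.03 and -0.07, adjusted p = 0.878 and 0.812, edgeR), although Tfe3 passed as higher by library size alone (0.45, adjusted p = 0.0283, edgeR).

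**Figure D4:**
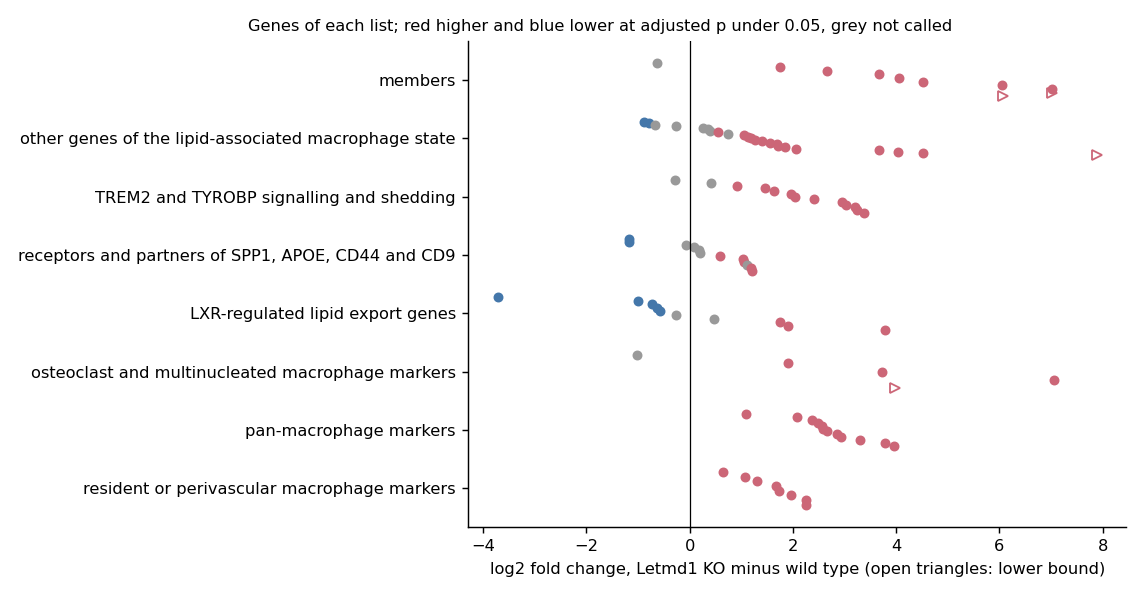
Log2 fold change (Letmd1 KO minus wild type) of each tested gene of 8 lists, one point per gene, red where higher and blue where lower at an adjusted p under 0.05 (edgeR) and grey otherwise, with open triangles at the lower bound for genes at the floor in wild-type BAT. All 12 pan-macrophage markers lie to the right of 0, while the LXR list holds 3 genes higher and 5 lower (3 and 2 when scaled by library size alone).

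Markers of other cell types that express Gpnmb or Spp1 were measured beside them. Osteoclast and multinucleated macrophage markers held 5 tested genes of 8, with 4 higher and none lower, beside 23.7% and 22.3% of all tested genes. KO replicate 2 was over 2-fold above both other KO mice for 4 of the 5. Among all genes with a mean of at least 20 counts this share was 2.04%. Without that mouse 3 were higher and 1 lower of 6 tested. Atp6v0d2, a proton pump subunit, was at 0.108, 0.742 and 0.522 CPM in wild-type and 23.7, 147.6 and 19.0 CPM in KO BAT (log2 fold change 7.07, adjusted p = 0.0007, edgeR). Ctsk, the collagenase cathepsin K, was at 6.25, 4.98 and 3.52 CPM and then 28.2, 149 and 22.0 CPM (3.72, adjusted p = 0.0028, edgeR). Without KO replicate 2 the log2 fold changes were 5.51 for Atp6v0d2 and 2.33 for Ctsk. Dcstamp, a fusion receptor, did not share that profile, with 0 counts in all wild-type mice and 68, 30 and 82 in the KO mice, at least 15.7-fold higher. Acp5 was lower in 2 of the KO mice than in any wild-type mouse and did not pass (-1.03, adjusted p = 0.0732, edgeR), but passed without KO replicate 2 (-1.85, adjusted p = 5.6e-05, edgeR). Calcr, the calcitonin receptor that defines osteoclasts, had 0 counts in wild-type BAT and 1, 0 and 3 in KO BAT. Ocstamp had 7, 4 and 11 counts in wild-type and 5, 1 and 7 in KO BAT, and Oscar had 15, 7 and 8 and then 2, 4 and 16. Melanocyte markers summed to 29.0 to 34.0 CPM in wild-type and 25.7 to 27.1 CPM in KO BAT, and 5 of 9 were at 3 counts or fewer in every mouse, with Tyrp1 at 0. Pmel made up most of these sums, at 28.5, 31.6 and 27.5 CPM in wild-type and 22.3, 23.4 and 22.1 CPM in KO BAT. Mlana went the other way, from 0 counts in all wild-type mice to 8, 1 and 22. Slc24a5 did too, from 0.539, 1.80 and 1.17 CPM to 2.53, 1.99 and 3.47 CPM. Fibroblast markers were higher for 8 of 8 tested genes, with summed levels of 2195 to 2900 CPM and 5967 to 10335 CPM. KO replicate 2 was the highest KO mouse for all 8, beside 38.4% of the genes with a mean of at least 20 counts. Neutrophil markers summed to 1.48 to 47.7 CPM in wild-type and 1.47 to 41.3 CPM in KO BAT, with KO replicate 2 at 41.3. Mast cell markers were higher for 4 of 4 tested genes, dendritic cell markers for 4 of 6, Schwann cell markers for 4 of 5 (2 of 5 with the muscle covariate) and monocyte markers for 2 of 3, beside 23.7% of all tested genes. Brown adipocyte markers were lower for 6 of 8 and endothelial markers for 3 of 7, beside 22.3% of all tested genes. With the muscle covariate these became 3 of 8 and 0 of 7. Quantile normalization gave 4 adipocyte markers lower and 1 higher, and library size alone gave 1 endothelial marker lower and 1 higher. The part of these cell types in the levels of Gpnmb and Spp1 was not tested.

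Genes with the profile most like that of a member were ranked by Pearson's r of log2 CPM over the 6 mice. Because the genotypes form separate clusters and each r rests on only 6 mice from the same libraries, the values are a description. For Gpnmb, r was between 0.992 and 0.996 for Trf, Nsmce1, Ctsk, Anpep, Fam198b, Ctsl, Grb2, Bcar3, Rpl7a and Dcn. Trf, the transferrin gene, was at 38.4, 34.1 and 36.2 CPM in wild-type and 104, 276 and 98.6 CPM in KO BAT. Anpep, an aminopeptidase, was at 24.7, 83.2 and 25.8 CPM in KO BAT. For Spp1 the nearest gene was Igf1 (r = 0.992), a growth factor, at 177, 332 and 150.03 CPM in KO BAT. Slc15a3 was nearest to Trem2 (0.999), C5ar2 to Tyrobp (0.999), Vim to Lgals3 (0.999), Mmp3 to Cd9 (0.989), Ppef1 to Cd44 (0.999), Zfand2a to Msr1 (0.999), Timp2 to Clec7a (0.999) and Macrod2 to Apoe (0.990).

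Several members overlap other annotated genes, and the use of strand in counting is not given in the sources used here. Cd9 overlaps Gm28809 and Gm26728 on the opposite strand, and Cd44 overlaps Gm23731 on the opposite strand. Whether reads of these genes were kept apart from those of Cd9 and Cd44 is not known. Spp1 overlaps Gm42793 on the same strand, so strand cannot separate reads in that overlap. Clec7a is annotated as a polymorphic pseudogene in GENCODE vM21.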

How the data were processed

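RNA of 6 BAT depots was sequenced with QuantSeq. The authors aligned the reads with Bowtie2, counted them per gene with bedtools on mm10 (tools and build from the submitters' processing notes) and deposited unscaled read counts, 1 file per mouse. The annotation and the use of strand are not given in the sources used here. Mice were grouped by the genotype in their labels. Nothing in the labels states the litter, so p-values measure the spread between these mice.

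Members and gene lists were chosen with earlier results of these data known. Counts were TMM-scaled and tested in R 4.3.3 with edgeR 4.0.16 (quasi-likelihood test, default filter with min.count 10 and min.total.count 15, Benjamini-Hochberg adjustment over 12995 genes, threshold 0.05), after the steps were tested on simulated data. Log2 CPM used a prior count of 2. The study's quantile normalization was run with limma 3.58.1 as an alternative, beside DESeq2 1.42.0, other filters and scalings, a muscle covariate and leaving out each mouse. Within a genotype, mice differed by more than counting error (chi-square divided by its degrees of freedom, 11.5 to 34.0).

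All members were named. From other lists, the 3 tested genes with the highest and the 1 with the lowest log2 fold change were named for the macrophage, pathway and osteoclast lists, with their untested genes given by counts. Markers of other cell types are given mainly as counts called or sums, which is less than the rule allowed. For Gpnmb and its mouse, the 10 nearest profiles and the 10 largest ratios were named. Tyrp1, Pmel, Mlana, Slc24a5, Anpep and Trf were given as examples after values were seen. Positions came from GENCODE vM21 on GRCm38 and promoters from RefSeq.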

Additional observations from a re-analysis of the deposited data

How the results depend on the processing

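The number of members called higher was 9 with TMM scaling, library size alone, no filter, a cut at 50 mean counts, the muscle covariate and the replicate block. It was 8 after quantile normalization with limma, 7 with DESeq2, which gives no adjusted p for Gpnmb and Spp1, and 8 to 9 with single mice left out. Apoe was called lower without KO replicate 2. Spp1 lost its call after quantile normalization and without wild-type replicate 1 or 2. Calls among the other lipid-associated macrophage genes ranged from 11 to 19, among signalling genes from 8 to 12, and stayed at 12 for pan-macrophage markers. The replicate numbers did not pair the mice (correlations of deviations 0.07, -0.11 and -0.09), and the block gave 16 other lipid-associated genes, 11 signalling genes and 12 pan-macrophage markers.

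Scaling by library size alone moved the median of all tested genes from 0.03 to 0.45 on the log2 scale and gave 5899 genes higher and 1368 lower, against 3082 and 2896. Signs changed for 4 of the named genes, all near 0 or uncalled. Apoe was 0.0111 after quantile normalization, and Adam17 was 0.14 and Tfeb 0.35 by library size alone. Tfe3 was -0.0332 after quantile normalization and -0.0851 with the muscle covariate. Leaving out each mouse in turn gave -0.0567 to 0.0979 for Tfe3 and -0.162 to 0.0515 for Tfeb. With the muscle covariate, Ctsz and Mitf no longer passed (adjusted p = 0.0728 and 0.0846, edgeR). The cause of these changes was not tested. In 3 mice a group, genes at the floor in wild-type BAT allow only lower bounds.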
